A study of Mus musculus with 2 samples.

Results

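Fibrinogen and the coagulation factors made by the liver were followed as 10 genes of the 32285 listed in each library: the fibrinogen chains Fga, Fgb and Fgg, the procoagulant factors F2, F5, F9 and F12, the fibrinolytic zymogen Plg, and the anticoagulants Proc and Serpinc1. The genes were chosen by symbol, all 10 were found, and each was counted as unique molecular identifiers (UMIs, 1 per captured transcript molecule) in single cells of mouse liver. The comparison was between control (WT) liver and liver plus tumor of N-LKO mice, in which albumin-Cre had deleted the loxP-flanked Nus1 (NgBR), a subunit of cis-prenyltransferase, in hepatocytes. All mice were male and had received 16 weeks of Western diet (the sample titles name it HFD). Each group was 1 library, the number of mice behind a library was not given in the sources used here, and hepatocytes, nonparenchymal cells and, in N-LKO alone, tumor cells had been recombined before loading. Genotype, tumor tissue and library therefore cannot be told apart, no test between the groups was possible, and every interval below is a 95% interval that covers counting error only.

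Fibrinogen is a plasma protein assembled in the hepatocyte from Aα, Bβ and γ chains, which Fga, Fgb and Fgg encode, and thrombin converts it to the fibrin of a clot. Prothrombin (F2) is the precursor of thrombin. F5 is the cofactor that speeds prothrombin activation, F9 is a vitamin K-dependent protease of the intrinsic pathway, and F12 starts the contact pathway. Plasminogen (Plg) is the precursor of plasmin, which dissolves fibrin, while protein C (Proc) inactivates the activated F5 and F8 cofactors and antithrombin (Serpinc1) inhibits thrombin and other clotting proteases. The fibrinogen genes are textbook acute-phase genes, raised in hepatocytes by interleukin-6 through STAT3 and C/EBP factors, whereas most of the clotting factors are not.

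The fibrinogen genes lie side by side and are known to share an interleukin-6 response, so the sequence before each start is given here. In GENCODE M21 (GRCm38) Fgg was at chr3:83007724-83015049 on the plus strand, Fga at chr3:83026076-83033627 on the plus strand and Fgb at chr3:83040141-83049863 on the minus strand, and the cluster spanned 42.1 kb. RefSeq promoters (GRCm38.p6) were available for 8 of the 10 genes. The untranscribed bases up to 250 before the start are printed 5′ to 3′ on the strand of the gene, from chr3:83007474-83007723 for Fgg, chr3:83025903-83026075 for Fga (173 bases, ending where the GENCODE gene begins) and chr3:83049864-83050113 for Fgb, with CTGGGA, the core of the type II interleukin-6 response element, in capitals:
Fgg: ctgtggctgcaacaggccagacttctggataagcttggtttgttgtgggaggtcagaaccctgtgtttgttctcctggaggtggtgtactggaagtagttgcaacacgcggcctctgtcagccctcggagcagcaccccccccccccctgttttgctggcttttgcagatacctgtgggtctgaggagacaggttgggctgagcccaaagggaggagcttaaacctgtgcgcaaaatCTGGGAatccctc
Fga: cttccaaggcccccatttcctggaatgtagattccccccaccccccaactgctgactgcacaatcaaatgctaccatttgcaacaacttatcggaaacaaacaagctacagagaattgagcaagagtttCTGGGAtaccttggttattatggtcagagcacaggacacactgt
Fgb: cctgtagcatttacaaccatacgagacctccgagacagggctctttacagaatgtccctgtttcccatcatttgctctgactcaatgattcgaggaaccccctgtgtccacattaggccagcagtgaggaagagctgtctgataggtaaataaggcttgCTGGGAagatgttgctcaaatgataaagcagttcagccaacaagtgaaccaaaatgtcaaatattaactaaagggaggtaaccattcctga
On either strand of the 250 bases, CTGGGA was found before 4 of the 8 genes (the fibrinogen chains and F9), and 27.0% of 32851 promoters held it. The STAT-type motif TTCNNNGAA was before Fga, Fgb and F9 (7.02% of promoters), where the F9 match overlapped its CTGGGA. These matches are letters in a window and were not tested as binding sites.

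The deposited matrices held 85522287 UMIs in 100171 barcodes for WT and 87575064 UMIs in 90147 barcodes for N-LKO, and 2499 barcode sequences occurred in both. After filtering, 18434 WT cells (median 1401 UMIs) and 19851 N-LKO cells (median 1454 UMIs) formed 22 clusters, of which 6 were hepatocyte-like by Alb, Apoa1, Ttr and other markers, with 9955 WT and 4085 N-LKO cells. Different clusters held these cells in each library: cluster 0 had 8162 WT and 90 N-LKO cells, cluster 5 had 118 WT and 1980 N-LKO cells, cluster 6 had 1 WT and 1991 N-LKO cells, and clusters 9, 17 and 19 had 1187, 325 and 162 WT cells with at most 15 from N-LKO. A cluster that comes mostly from 1 library may be that library and not a cell state. Cluster 6 rested on 3 raised hepatocyte markers of 8. Its leading genes (Grip1, Pdzrn3, Neat1) held none of the 8, which was also so for clusters 0, 9, 17 and 19. The nuclear RNA Malat1 took 2.01% of the UMIs of cluster 6 against 0.669% in the median hepatocyte-like cluster. Results are therefore also given without clusters 6, 9, 17 and 19, all of which had over 2 times or under 0.5 times that median. The targeted gene Nus1 had 73.0 (WT) and 34.1 (N-LKO) CPM (UMIs scaled to a total of 1000000 in the class) in hepatocyte-like cells. A 3′ tag can remain after deletion of an upstream exon, so this is a partial check of the labels.

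All 10 genes had their highest level in hepatocyte-like cells in both libraries, among the 10 named classes with at least 100 cells in each. Fgb was the most abundant, at 1702 CPM (1682 to 1721) for WT, with 2542 CPM (2508 to 2576) for N-LKO. Fgg followed at 1581 and 1763 CPM and Fga at 1031 and 1229 CPM. Plg (651 and 708 CPM) and Serpinc1 (582 and 564 CPM) came next, and F2, F5, Proc, F9 and F12 lay between 86.1 and 331 CPM. These are levels per library of a 3′ assay that counts molecules without a length term. Together the 10 genes made 0.650% of hepatocyte-like UMIs in WT and 0.767% in N-LKO, and fibrinogen gave 66.4% and 72.2% of those. With each cell thinned to 1000 UMIs, Fgb was detected in 75.6% (WT) and 76.8% (N-LKO) of hepatocyte-like cells (86.2% and 87.4% unthinned), and F12 in 9.60% and 7.88%. In T/NK-like cells, which should lack these genes, the thinned share for Fgb was 39.6% in WT and 51.2% in N-LKO, at median depths of 1191 and 1356 UMIs against 1520 and 1769 in hepatocyte-like cells.

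**Figure D1:**
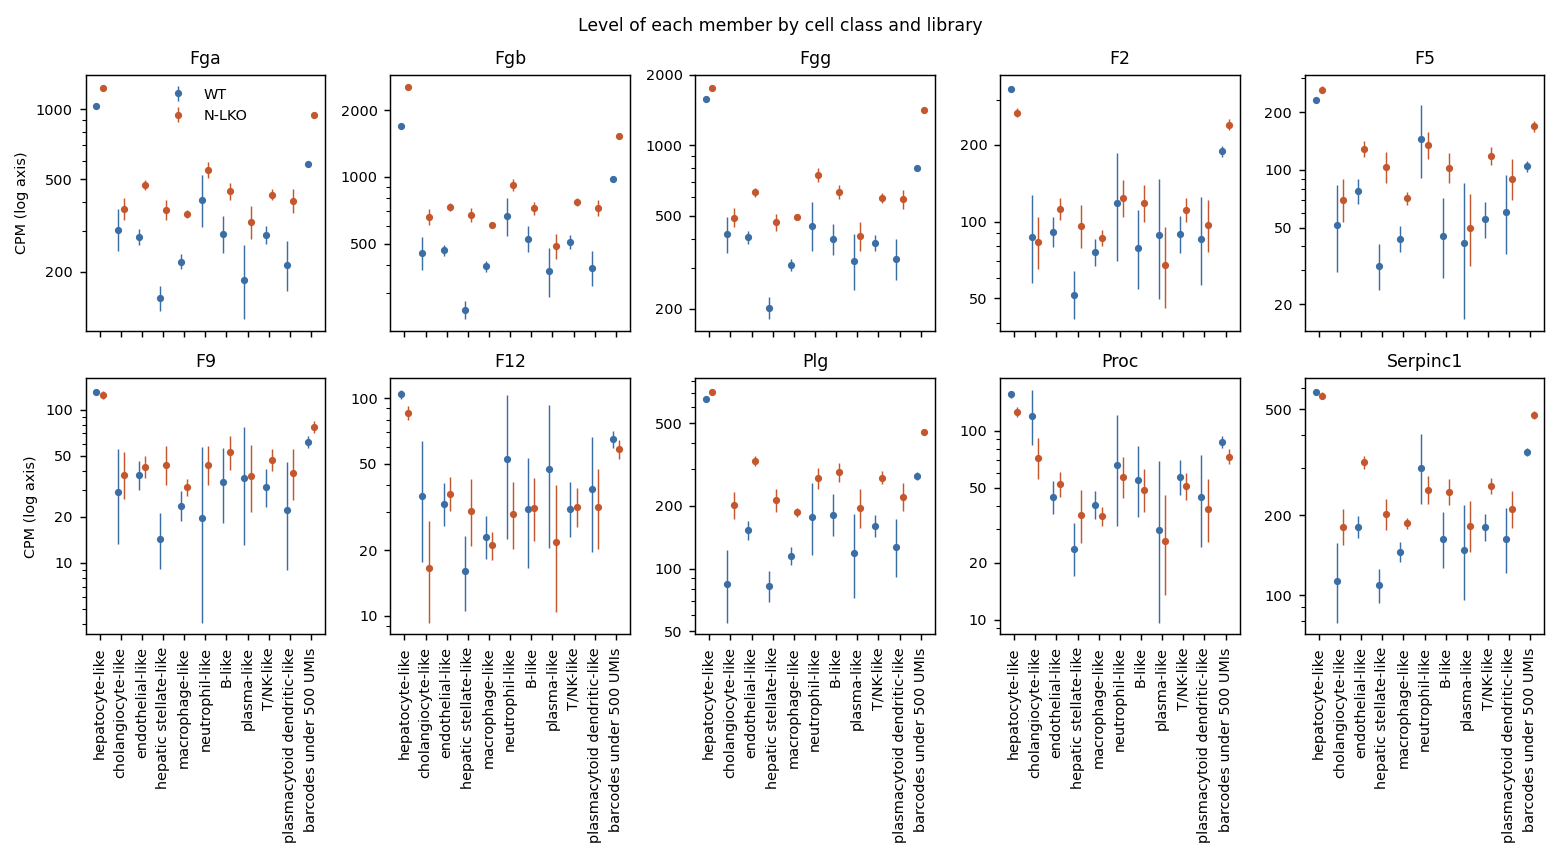
CPM of each gene (y axis, logarithmic) in the 10 named cell classes and in barcodes under 500 UMIs (x axis), for WT (blue) and N-LKO (orange), 1 library each, with bars for the exact 95% Poisson interval of the UMI count. The hepatocyte-like point is the highest of the classes in every panel, and the other classes are well above 0 in all of them.

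In all hepatocyte-like cells together, none of the 10 genes was 1.5-fold higher in N-LKO and none was 1.5-fold lower. Of the 10570 genes with at least 5 CPM in a library, 39.5% were higher by that much and 7.05% were lower, and the median of all of them was a log2 ratio (N-LKO over WT) of 0.38. The median log2 ratio of the 10 genes was 0.04, with 5 above 0 against 70.4% of all genes, and 1 (Fgb) above the median of all genes.

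Of the fibrinogen chains, Fgb had a log2 ratio of 0.58 (0.55 to 0.60), which is 1.49-fold. Fga had 0.25 (0.22 to 0.29) and Fgg 0.16 (0.13 to 0.19). The chains differed unequally: Fgb made up 39.4% (39.1 to 39.8) of fibrinogen UMIs in WT and 45.9% (45.5 to 46.4) in N-LKO, while Fgg went from 36.7% to 31.9% and Fga from 23.9% to 22.2%. These shares are over all hepatocyte-like clusters, which differ between the libraries, and did not shift alike within clusters. In cluster 5 Fgb gave 490 of 1016 fibrinogen UMIs in WT and 16954 of 35734 in N-LKO, and Fgg had the largest log2 ratio (0.97, against 0.85 for Fgb, with overlapping intervals). In cluster 0 Fgb had the largest (0.90, against 0.56 for Fgg). Summed, fibrinogen was at 4314 (WT) and 5534 (N-LKO) CPM.

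The procoagulant factors did not share a direction. Prothrombin (F2, chr2:91625320-91636414) was at 331 (WT) and 268 (N-LKO) CPM, a log2 ratio of -0.31 (-0.38 to -0.24). F12 (chr13:55417958-55426793) was at 105 and 86.1 CPM, -0.28 (-0.41 to -0.16). F5 (chr1:164151838-164220277) was at 232 and 262 CPM, 0.18 (0.10 to 0.25). F9 (chrX:59999464-60030759) was at 130 and 124 CPM, and its interval of -0.17 to 0.04 held 0. Plasminogen (Plg, chr17:12378608-12419385) had a log2 ratio of 0.12 (0.07 to 0.17). Of the anticoagulants, Proc was at 155 and 125 CPM, -0.31 (-0.42 to -0.21), and Serpinc1 (chr1:160978585-161005863) had -0.05 (-0.10 to 0.00).

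The ratio of a gene moved with the length of its locus across the transcriptome. The median log2 ratio was -0.07 in the quintile of genes with the shortest span and 0.92 in that with the longest, and Fga, Fgg and F12 belonged to the shortest. Relative to genes of the same quintile, F5 was at -0.44 and Plg at -0.50, while Fga was at 0.32, Fgb at 0.46 and Fgg at 0.23. The remaining genes lay between -0.43 (Proc) and -0.21 (F12). Without clusters 6, 9, 17 and 19 (8280 WT and 2070 N-LKO cells) the median of all genes was 0.07 and the fibrinogen chains separated from the other 7 genes. Fgb was then at 1791 (WT) and 3830 (N-LKO) CPM, a log2 ratio of 1.10 (1.07 to 1.12). Fga had 0.62 (0.58 to 0.66) and Fgg 0.59 (0.56 to 0.62), so 3 genes were past 1.5-fold where 16.4% of all genes were. The other 7 lay between -0.31 (Proc) and 0.04 (F9).

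**Figure D2:**
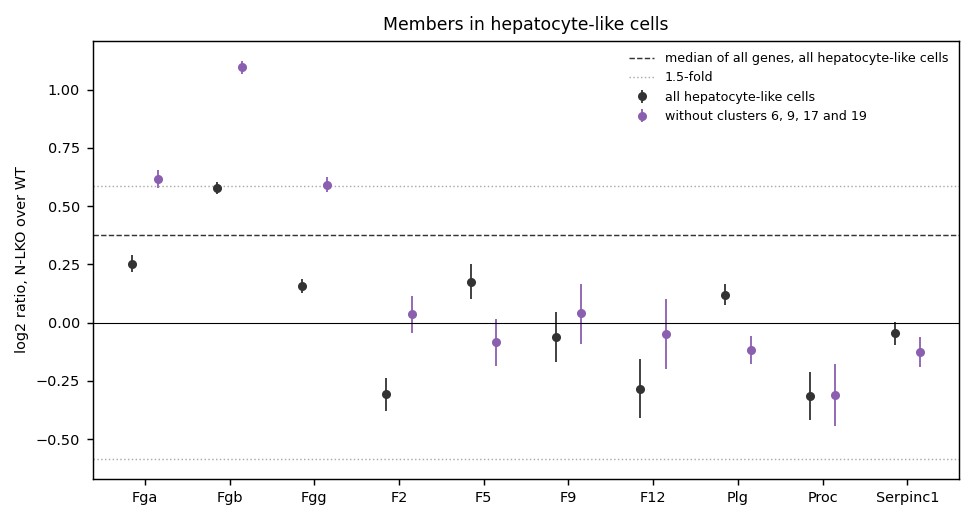
Log2 ratio of N-LKO over WT CPM (y axis) for each gene (x axis) in all hepatocyte-like cells (black) and without clusters 6, 9, 17 and 19 (purple), with exact 95% intervals from the UMI counts. The dashed line is the median of all genes (0.38), the dotted lines are 1.5-fold, and the purple points of Fga, Fgb and Fgg lie above the upper dotted line.

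The level of fibrinogen differed between hepatocyte-like clusters as well as between libraries. Summed over its chains it was at 4610 CPM (4575 to 4646) in WT cells of cluster 0, 4433 CPM in WT cells of cluster 5, 3100 CPM in cluster 17, 2993 CPM in cluster 19 and 2176 CPM in cluster 9. In N-LKO it was at 7863 CPM (7428 to 8316) in cluster 0, 8110 CPM (8026 to 8195) in cluster 5 and 2476 CPM (2426 to 2526) in cluster 6. The N-LKO cells of clusters 0 and 5 were above every WT cluster, and those of cluster 6 were below all but cluster 9.

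Within a cluster, cells of both libraries could be set side by side in 2 cases. In cluster 5, Fgb was at 2138 (WT) and 3848 (N-LKO) CPM, a log2 ratio of 0.85 (0.72 to 0.98), while Fgg had 0.97 (0.80 to 1.14) and Fga 0.78 (0.59 to 0.98). The median of all genes there was -0.11. Plg also differed, at 410 and 642 CPM (0.64, 0.35 to 0.96), and the intervals of the remaining 6 genes held 0. Those 6 rested on 21 (F12) to 113 (Serpinc1) WT UMIs, against 226 to 490 for the chains. In cluster 0, with 90 N-LKO cells, Fgb had 0.90 (0.77 to 1.02), Fga 0.85 (0.68 to 1.01) and Fgg 0.56 (0.42 to 0.71), and the intervals of the other 7 genes held 0. Of those, F12, Proc, F9 and F5 rested on 17, 18, 21 and 33 N-LKO UMIs, against 313 to 518 for the chains. Fewer UMIs widen an interval. There 2 genes were past 1.5-fold higher, where 35.9% of all genes were. The acute-phase gene Saa1 was lower in N-LKO in cluster 5, at 1134 (WT) and 786 (N-LKO) CPM, and higher in cluster 0, at 65.4 and 251 CPM. Saa2 did the same, at 833 and 508 CPM in cluster 5 and 33.1 and 135 CPM in cluster 0. Lcn2 was higher in N-LKO in both, at 371 and 470 CPM in cluster 5 and 10.5 and 83.6 CPM in cluster 0. Only 118 WT cells were in cluster 5. Between the clusters with most cells of each library, all 3 genes were higher in N-LKO. Saa1 was at 65.4 CPM in WT cluster 0 and at 786 and 141 CPM in N-LKO clusters 5 and 6. In the same order, Saa2 was at 33.1, 508 and 73.7 CPM and Lcn2 at 10.5, 470 and 98.1 CPM. In barcodes under 500 UMIs, fibrinogen was at 2360 (WT) and 3882 (N-LKO) CPM, in the same direction, and the part of such RNA in the differences was not tested.

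Against WT cells of cluster 0, N-LKO cells of cluster 5 had Fgb at a log2 ratio of 1.11, Fga at 0.60 and Fgg at 0.59, and these 3 genes were past 1.5-fold higher where 16.9% of all genes were. The other 7 lay between -0.31 (Proc) and 0.04 (F9). Cluster 6 had a different order. F2 was at -1.21 (-1.33 to -1.08), Fgg at -1.08, Fgb at -0.83, Fga at -0.76 and F12 at -0.72, so 5 genes were 1.5-fold lower where 19.1% of all genes were. Plg (0.17) and F5 (0.32) were above 0 there but below the median of all genes, which was 0.74. Alb was at 4163 CPM against 23965 CPM in WT cells of cluster 0.

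WT clusters 9, 17 and 19 each had less fibrinogen than WT cells of cluster 0. In cluster 9, whose cells had a median of 1140 UMIs and a Malat1 share of 0.152%, all 10 genes were 1.5-fold lower than in cluster 0 where 33.7% of all genes were, from -0.82 (Proc) to -1.83 (F5). In the Malat1-rich cluster 17, 4 genes were 1.5-fold lower (F2 -1.37, Fga -1.03, F9 -0.93 and Fgg -0.78) where 18.0% of all genes were, and Fgb was at -0.19. F5 (0.43) and F12 (0.39) were above 0 there and below the median of all genes (0.58). In cluster 19, in which the pericentral genes Glul and Oat were at 6747 and 4116 CPM, Fgb was at -0.72 (-0.90 to -0.55), Fga and Fgg at -0.56, and F12 at 0.58 (0.07 to 1.01).

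**Figure D3:**
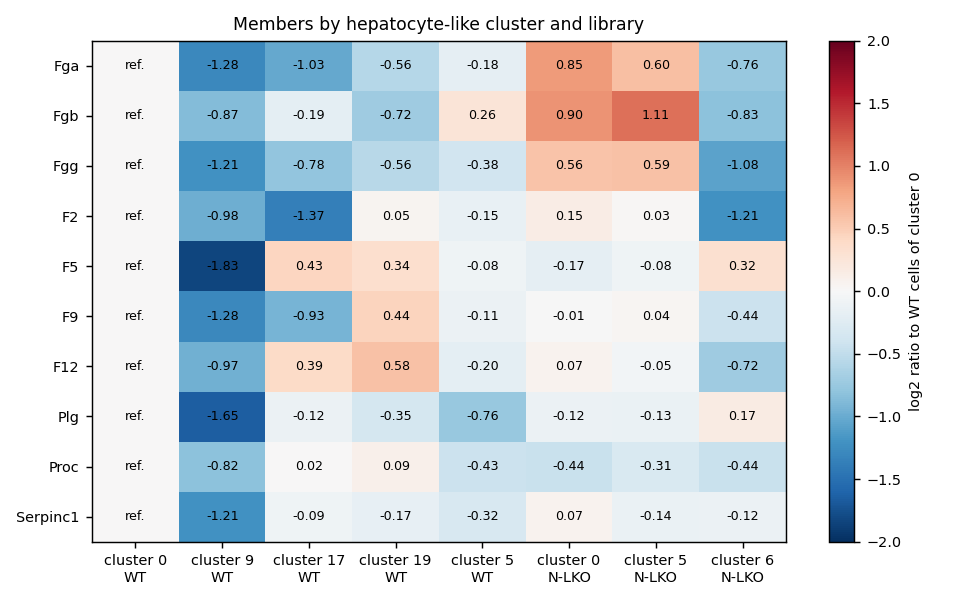
Log2 ratio of each gene (rows) in each hepatocyte-like cluster and library with at least 50 cells (columns) to the WT cells of cluster 0, as color and number. The fibrinogen rows are positive in the N-LKO cells of clusters 0 and 5 and negative in cluster 6 and in WT clusters 9, 17 and 19, and every row is negative in cluster 9.

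Hepatocytes differ along the lobule from the portal to the central vein, and the cells of each library were therefore split into terciles by a score of 10 periportal and 10 pericentral genes. In WT all 10 genes were higher in the periportal tercile, where 41.8% of all genes were. Fgb was at 1290 CPM in the pericentral and 2176 CPM in the periportal tercile, a log2 ratio of 0.75 (0.71 to 0.80). Fgg had 0.57, F12 0.57, Fga 0.53, Plg 0.39 and Serpinc1 0.39. Proc, F9, F2 and F5 had smaller values, from 0.20 down to 0.11. In N-LKO 9 of 10 were higher in the periportal tercile, where 35.0% of all genes were, with Fgb at 2012 and 3419 CPM (0.77, 0.72 to 0.81), Fgg at 0.75, Fga at 0.64 and F12 at 0.56. F5 was at -0.12, and its interval of -0.26 to 0.03 held 0. Alb was also higher in the periportal tercile, by a log2 ratio of 0.63 in WT and 0.23 in N-LKO. The periportal cells were deeper, with medians of 1734 UMIs against 1414 in WT and 1967 against 1664 in N-LKO, and the part of depth in the differences was not tested. The terciles also pooled clusters that differ in both fibrinogen and zone genes. N-LKO clusters 5 and 6 had fibrinogen at 8110 and 2476 CPM and the periportal gene Cyp2f2 at 339 and 139 CPM. The part of the cluster mix was not tested. The terciles are ranges of a score and not cell types: 996 WT and 536 N-LKO cells lay within 0.05 of a boundary.

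**Figure D4:**
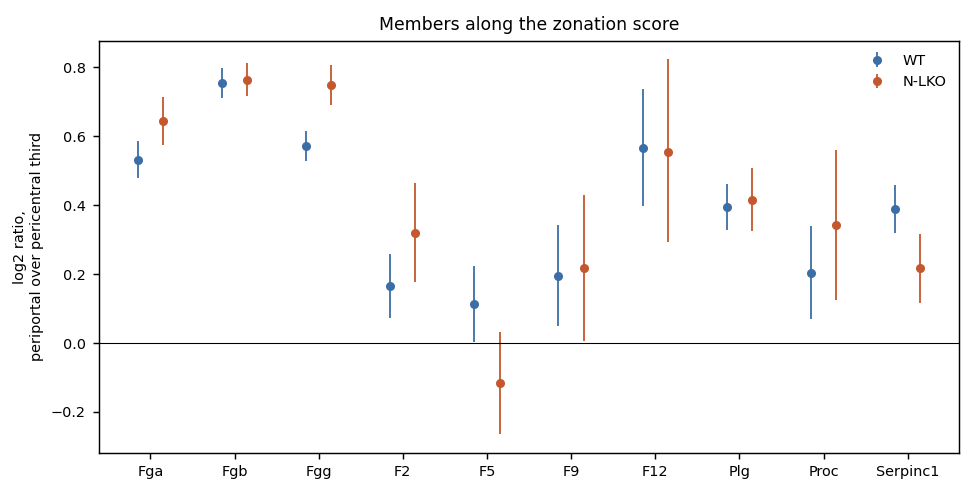
Log2 ratio of the periportal over the pericentral tercile of hepatocyte-like cells (y axis) for each gene (x axis) in WT (blue) and N-LKO (orange), with exact 95% intervals from the UMI counts. All WT points are above 0, and F5 in N-LKO is the lowest point, with an interval that holds 0.

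Outside hepatocytes the 10 genes were present too, beside free RNA. Its share was estimated as the level of 10 other hepatocyte genes in a class over their level in barcodes under 500 UMIs. It came to between 23.1% (hepatic stellate-like, WT) and 57.0% (neutrophil-like, N-LKO) of a class's UMIs. That share takes in all RNA of those barcodes, of which hepatocyte transcripts are only a part. These barcodes had passed the cell calling of the deposited matrices, so they may hold shallow cells as well as free RNA. Neutrophil-like cells were the class next to hepatocytes for Fga, Fgb and Fgg in both libraries, with Fgb at 663 (WT) and 916 (N-LKO) CPM, and stellate-like cells were the lowest class in WT for all 3. Over 90 pairs of gene and class, the observed level was 1.15 times the estimated free RNA in the median in both libraries. Intervals lay above it for 27 pairs in WT and 46 in N-LKO, and below it for 3 in N-LKO. These counts also depend on cell number, since more UMIs narrow an interval. Macrophage-like cells were 2480 (WT) and 5573 (N-LKO), neutrophil-like cells 109 and 727, and stellate-like cells, the other way, 910 and 631. The share of all genes above the estimate was not computed, so the counts say nothing particular about the 10 genes. The share of Fgb among fibrinogen UMIs was between 38.6% and 43.5% in the non-hepatocyte classes of WT and between 39.8% and 44.5% in those of N-LKO, where hepatocyte-like cells had 45.9%. Few neighbors in the order of classes were apart: of 9 neighboring pairs per gene and library, at most 3 had intervals that did not overlap. Cholangiocyte-like cells came next to hepatocytes for Proc, at 119 CPM (84.1 to 165) against 155 CPM in WT hepatocyte-like cells and at 72.0 CPM (55.5 to 91.7) against 125 CPM in N-LKO. The Proc intervals overlapped in WT and not in N-LKO. Proc in cholangiocyte-like cells was 3.29 times the estimated free RNA (2.31 to 4.53) in WT and 2.47 times (1.91 to 3.15) in N-LKO. It was the highest ratio of the 90 pairs in each library, and its source was not tested.

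The other genes of hemostasis were 35, of which 28 had at least 5 CPM in hepatocyte-like cells of a library. Of these, 8 were 1.5-fold higher in N-LKO, 3 were 1.5-fold lower, and their median log2 ratio was -0.08, against 39.5%, 7.05% and 0.38 over all genes. Fgl1, a fibrinogen-like protein secreted by the liver, was at 46.5 (WT) and 213 (N-LKO) CPM (2.20, 2.07 to 2.32). Kng2, a kininogen gene with a close paralog, Kng1, was at 92.1 and 212 CPM (1.20), with Kng1 at 0.30, and the split of reads between the pair is uncertain. F13a1 (2.20), Plaur (1.86) and Thbd (1.45) rested on 31, 24 and 37 WT UMIs. F13a1 and Thbd are best known from macrophages and endothelium, and they were higher in those classes of N-LKO too, and the part of RNA from those cells was not tested. Prekallikrein (Klkb1), the partner of F12 in the contact pathway, was at 210 and 111 CPM (-0.92, -1.02 to -0.81), heparin cofactor II (Serpind1) at 185 and 100.2 CPM (-0.88), and the hepatocyte growth factor activator Hgfac at -0.67.

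**Figure D5:**
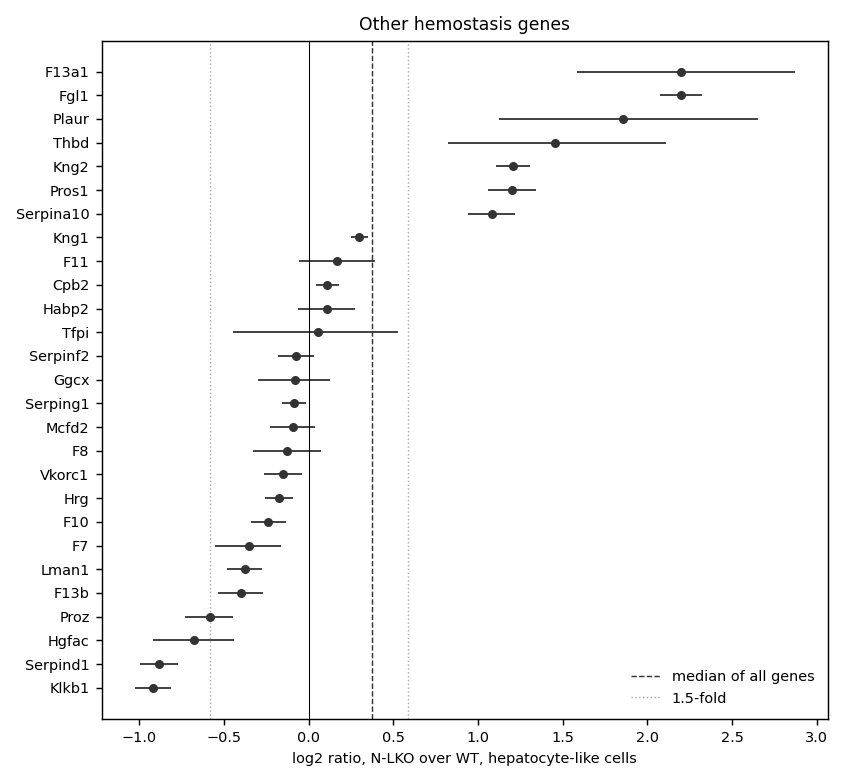
Log2 ratio of N-LKO over WT in hepatocyte-like cells (x axis) for 27 of the 28 other hemostasis genes with at least 5 CPM in a library (y axis), with exact 95% intervals from the UMI counts. The dashed line is the median of all genes and the dotted lines are 1.5-fold; 7 genes lie beyond the right dotted line and 3 beyond the left.

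Hemostasis genes with sources outside hepatocytes are given in the class with the highest mean level over both libraries. At resolution 0.6 most endothelial-like cells fell into 1 cluster per library (159 WT and 2224 N-LKO cells in one, 1673 and 49 in the other), and Kupffer-type macrophages fell into a shared cluster (878 WT and 3454 N-LKO cells) and a mostly WT one (719 and 20). F8, the cofactor of F9, was at 927 (WT) and 537 (N-LKO) CPM in endothelial-like cells, a log2 ratio of -0.79 (-0.88 to -0.70). It was also lower in N-LKO stellate-like cells (380 and 213 CPM). T/NK-like cells (19.7 and 33.1 CPM) and macrophage-like cells (19.4 and 30.3 CPM) went the other way. In endothelial-like cells Vwf, the carrier of F8, was at 17.6 and 52.5 CPM (1.56, 1.08 to 2.10). Thbd, which turns thrombin toward Proc, was at 36.9 and 99.5 CPM there (1.42, 1.09 to 1.79). WT neutrophil-like cells had Vwf at 19.7 CPM, on 3 UMIs. Tfpi was at 147 and 129 CPM in endothelial-like cells. F13a1, which encodes the fibrin-crosslinking subunit, was at 54.4 and 157 CPM in macrophage-like cells (1.52, 1.31 to 1.75). It was also higher in N-LKO in T/NK-like (5.08 and 83.4 CPM), stellate-like (4.16 and 44.7), B-like (19.1 and 62.7) and neutrophil-like cells (52.5 and 105). Plasmacytoid dendritic-like cells went the other way, at 57.2 CPM on 18 WT UMIs and 46.4 CPM. The part of carried-over RNA in these classes was not tested. Procr (12.3 and 11.4 CPM) and Plau (13.4 and 15.6 CPM) were low in macrophage-like cells. Tissue factor (F3) was highest in cholangiocyte-like cells, at 42.0 and 73.1 CPM on 13 and 66 UMIs. Stellate-like cells had Plat at 3.57 and 16.99 CPM on 6 and 19 UMIs.

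Of 11 regulators of fibrinogen and clotting factor transcription, 7 were 1.5-fold higher in N-LKO hepatocyte-like cells and 1 was lower, where 39.5% and 7.05% of all genes were. Il6ra, which encodes the interleukin-6 receptor, was at 32.0 and 88.3 CPM (1.46, 1.30 to 1.63) and Stat3 at 80.5 and 134 CPM (0.73). Socs3, a feedback inhibitor of that pathway, had 1.77 on 32 and 55 UMIs, Cebpd 0.82, Cebpb 0.62, the glucocorticoid receptor Nr3c1 0.61 and Jak1 0.59. The last 2 were below the median of their span quintile (0.92). Hnf4a (0.43) and Il6st (-0.01) were within 1.5-fold, and Cebpa was at 94.8 and 44.3 CPM (-1.10, -1.26 to -0.93). The regulator ratios are given over all hepatocyte-like clusters only, with the Malat1-rich cluster 6 included. Hnf4a was at 156 CPM in WT cells of cluster 0 and at 176 and 250 CPM in N-LKO cells of clusters 5 and 6. Among 16 other plasma proteins, 2 were 1.5-fold higher, the acute-phase proteins Hp at 616 and 1661 CPM (1.43) and Cp at 1108 and 2175 CPM (0.97), and 1 was lower, Alb at 21818 and 10796 CPM (-1.01). Their median was -0.07, and 39.5% of all genes were higher by that much and 7.05% lower, with a median of 0.38.

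Over the 8 combinations of hepatocyte-like cluster and library with at least 50 cells, the genes whose log2 level followed the mean of the fibrinogen chains most closely, of 2821 compared, were Cpb2 (Pearson's r of 0.95), Gc (0.94), Itih4 (0.93), Vtn (0.93) and Ctsl (0.93). Cpb2 encodes the fibrinolysis inhibitor also called TAFI, Gc the vitamin D-binding protein, Itih4 an acute-phase inhibitor heavy chain and Vtn vitronectin. These combinations share 2 libraries and differ in depth and Malat1 share, and the values are a description. Among the 10 genes the range over the combinations was widest for F5, at a log2 range of 2.27, and narrowest for Proc, at 0.91.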

How the data were processed

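Liver cells released by collagenase perfusion were profiled with a 10x Genomics 3′ v3 kit, in 1 library per group, taken from the genotype and title labels. The authors counted UMIs with Cell Ranger (7.1.0 per the file headers), and the deposited values are raw UMI counts per gene and barcode. The submitters' notes name mm9, and the annotation was not given in the sources used here. Loci are from GENCODE M21 on GRCm38.

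Barcodes with at least 1000 UMIs, at least 400 genes and at most 30% mitochondrial UMIs were kept. Scrublet (scanpy 1.11.5, expected rate 10%) removed scores over 0.25, which was 8.55% of WT and 10.6% of N-LKO barcodes. Both libraries were clustered together on 1995 variable genes without the hemostasis genes (30 principal components, 20 neighbors, leidenalg 0.10.2 at resolution 0.3). Clusters were named from 15 marker lists, with thresholds on the score set after seeing the data, so classes may differ from the study's. UMIs were summed per class and library and scaled to CPM. Ratios had 0.5 UMI added to each sum, a call was 1.5-fold, and genes needed 5 CPM in a library. Intervals were exact Poisson, binomial (Clopper-Pearson) or conditional binomial, at 95%, and cover counting error only. The interval of the ratio was run on simulated Poisson counts, which it assumes, so this checks the calculation and not the spread between cells, mice or libraries.

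The 10 genes and all lists were chosen with earlier results of these data known. From the other hemostasis genes the text names up to 6 past 1.5-fold in each direction and those fixed for their sources outside hepatocytes. Kng1 was named after its values were seen, as were Saa1, Saa2, Lcn2 and Malat1. The regulators and the 5 genes most like fibrinogen are named, and 2 listed genes that enter the counts are not reported here. Alternatives covered the cell filters, the clustering, the scaling, free RNA and the zonation split.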

Additional observations from a re-analysis of the deposited data

Results flagged for a closer look

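F5 was the only one of the 10 genes with opposite signs along the zonation score in the 2 libraries: the log2 ratio of the periportal over the pericentral tercile was 0.11 (0.00 to 0.22) in WT and -0.12 (-0.26 to 0.03) in N-LKO. The difference between the libraries was not tested.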

How the results depend on the processing

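No paired analysis was possible because each group has 1 library, and for the same reason no replicate could be left out. The median log2 ratio of the fibrinogen chains in hepatocyte-like cells (0.25) became 0.81 with a minimum of 500 UMIs, 0.72 at resolution 0.6 and 0.62 without the Malat1-rich and Malat1-poor clusters, each with 3 of the 10 genes 1.5-fold higher, where 12.9%, 14.3% and 16.4% of all genes were. At 500 UMIs and at resolution 0.6 the N-LKO Malat1-rich cells were not named hepatocyte-like. Relative to genes of the same quintile of span, the median of the fibrinogen chains was 0.32. It became -0.60 after subtraction of free RNA, -0.12 relative to the median of all genes and 0.0089 with free RNA subtracted at the N-LKO share in both libraries, an alternative chosen after seeing the data because the estimated share of hepatocyte-like UMIs was 85.0% (WT) and 44.9% (N-LKO). Those 2 shares were estimated from 20 genes, not the 10 used for the other classes. Doublets may add to them, and that part was not tested.

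The median of the 10 genes (0.04) became 0.32 at a mitochondrial limit of 10%, -0.34 relative to all genes, -0.38 relative to genes of the same quintile of span and -0.91 with free RNA subtracted. The count 1.5-fold higher (0) was 1 (Plg, 0.64) at the 10% mitochondrial limit, where 40.7% of all genes were. At that limit Fga was at 0.55, Fgb at 0.33 and Fgg at 0.30, so Fgb was no longer the highest chain. The count was 1 (Fgb, 0.62) without doublet removal, where 38.3% of all genes were. The count 1.5-fold lower (0) was 9 after that subtraction, 3 relative to all genes and 1 at the equal share, where 13.8%, 19.03% and 8.98% of all genes were. Of the other hemostasis genes, the count lower (3) was 1 at 500 UMIs (7.54% of all genes), 0 at the 10% mitochondrial limit (19.1%), 16 after that subtraction, 8 relative to all genes, 7 relative to span (14.2%) and 6 at the equal share, and the count higher (8) was 3 with free RNA subtracted, where 52.2% of all genes were.

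Genes whose interval did not hold 0 changed sign as follows: F2 to 0.26 and F12 to 0.14 at 500 UMIs; F2 to 0.21 at the 10% mitochondrial limit; F2 to 0.13, F5 to -0.024 and Plg to -0.023 at resolution 0.6; Fga to -0.12, Fgg to -0.22, F5 to -0.20 and Plg to -0.26 relative to all genes; F5 to -0.44 and Plg to -0.50 relative to span; Fga to -0.60, Fgb to -0.10, Fgg to -0.87, F5 to -0.81 and Plg to -0.91 with free RNA subtracted; Fgg to -0.18, F5 to -0.050 and Plg to -0.12 at the equal share; and F2 to 0.035, F5 to -0.084 and Plg to -0.12 without the Malat1 clusters. F9 and Serpinc1, whose intervals held 0, were above 0 under 4 and 3 of 12 alternatives, at up to 0.37 and 0.28. The cause was not tested. Proc stayed below 0 under all 12 alternatives, from -1.01 to -0.18. The 27 WT pairs above free RNA were 10 with Alb alone as reference and 10 at the 10% mitochondrial limit.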
